A study of Homo sapiens with 5 samples.

Results

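The 10 mRNAs described here mark whether an epithelial cell holds or loses its epithelial state. They are CDH1, CDH2, CDH3, EPCAM, VIM, FN1, SPARC, SNAI2, TWIST1 and ZEB1, taken by name from 56632 genes listed in the RIPseq tables of MCF10A, an established non-tumorigenic line of human breast epithelial cells. RIPseq sequences the RNA that comes down with a protein in an immunoprecipitation (RIP), and the study used it to ask which transcripts CBFB and hnRNPK bind. CBFB is the partner of the RUNX transcription factors, while hnRNPK binds RNA directly and favours stretches rich in C. Of the 5 libraries, MCF10A cells expressing FLAG-CBFB gave an input and a FLAG antibody RIP, and parental MCF10A cells gave an input and 2 repeats of a RIP with an hnRNPK antibody. All cells were untreated, of the same line and grown in medium with horse serum, insulin, EGF, hydrocortisone and cholera toxin. For its FLAG pulldowns the study describes stable CBFB knockout cells transduced with a lentivirus for FLAG-tagged CBFB, and the labels do not say whether the RIP cells were that line, a clone or a pool. Neither do they say whether the hnRNPK repeats came from separate cultures, so p-values measure only the spread between these 2 libraries.

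In epithelium, E-cadherin (CDH1) and P-cadherin (CDH3) join neighbouring cells through their outer domains and reach the actin cytoskeleton through catenins. During an epithelial-mesenchymal transition, transcription factors of the Snail, ZEB and Twist families repress CDH1, while N-cadherin (CDH2), the filament protein vimentin (VIM) and the matrix proteins fibronectin (FN1) and osteonectin (SPARC) are made in larger amounts. Basal breast epithelial cells can carry some of these mesenchymal mRNAs without having left the epithelial state.

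The tables list the 10 by Ensembl gene identifier, and their places below are those of GENCODE 29 on GRCh38. Those of the surface proteins are CDH1 (ENSG00000039068, chr16:68737225-68835548, plus strand), CDH3 (ENSG00000062038, chr16:68636189-68722616, plus strand), CDH2 (ENSG00000170558, chr18:27950966-28177446, minus strand) and EPCAM (ENSG00000119888, chr2:47345158-47387601, plus strand). Those of the filament and matrix proteins are VIM (ENSG00000026025, chr10:17228259-17237593, plus strand), FN1 (ENSG00000115414, chr2:215360440-215436172, minus strand) and SPARC (ENSG00000113140, chr5:151661096-151687165, minus strand). Those of the transcription factors are SNAI2 (ENSG00000019549, chr8:48917604-48921740, minus strand), TWIST1 (ENSG00000122691, chr7:19020991-19117672, minus strand) and ZEB1 (ENSG00000148516, chr10:31318495-31529814, plus strand).

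The libraries held between 69786576 and 106855647 expected counts, but mitochondrial genes took 62.2% of the counts with FLAG-CBFB RIP and 84.5% and 86.6% with hnRNPK RIP, while the inputs of FLAG-CBFB and parental cells gave them 4.27% and 11.2%. The mean log2 ratio of FPKM + 1 to the input was therefore -1.34 for FLAG-CBFB, then -2.61 and -2.68 for the hnRNPK repeats, over the 11764 genes whose FPKM averaged 1 or more. Enrichment below is this log2 ratio with that mean taken away. It sets the ratio of a gene to its own input against that of the average gene. A value of 0 therefore stands for the average gene and not for an unchanged level. The basal marker KRT5 was at 1974 and 1640 FPKM in the inputs. All 7 basal markers examined were above 1 FPKM in both inputs. So were 4 of the 7 luminal markers, among them KRT18 at 305.47 and 701.82 FPKM and KRT8 at 76.63 and 195.77. Among the fibroblast markers, COL1A2 and COL3A1 were listed at 0 in every library. FAP had 9.69 and 8.75 FPKM in the FLAG-CBFB cell and parental inputs, and COL1A1 had 1.08 and 1.77. None of the 5 endothelial and leukocyte markers found reached 0.1 FPKM.

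The epithelial surface mRNAs were the highest of the 10 in both inputs. CDH3 had 143.02 FPKM in the FLAG-CBFB cell input and 86.91 in the parental input. CDH1 had 92.87 and 76.98 FPKM, and EPCAM, which encodes the epithelial cell adhesion molecule, had 69.34 and 102.56. These values placed CDH1 at rank 1036 and 1420 among all listed genes in the FLAG-CBFB cell input and the parental input.

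Of the transcription factors, SNAI2 (Slug, a repressor of CDH1) was the most abundant, with 34.45 FPKM in the FLAG-CBFB cell input and 26.44 in the parental input. TWIST1 had 4.83 and 7.05 FPKM. ZEB1 had 0.20 and 0.29 FPKM, from 45.4 and 36.5 expected counts. A transcript antisense to it, ZEB1-AS1, had 38.6 and 29.5 expected counts. Whether the counting used strand is not given in the sources used here, so ZEB1 and ZEB1-AS1 cannot be told apart with certainty. CDH2 stood at 0.82 and 1.03 FPKM. CDH2 and ZEB1 fell below the mean of 1 FPKM and were left out of the enrichments, which leaves 8 of the 10.

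**Figure D1:**
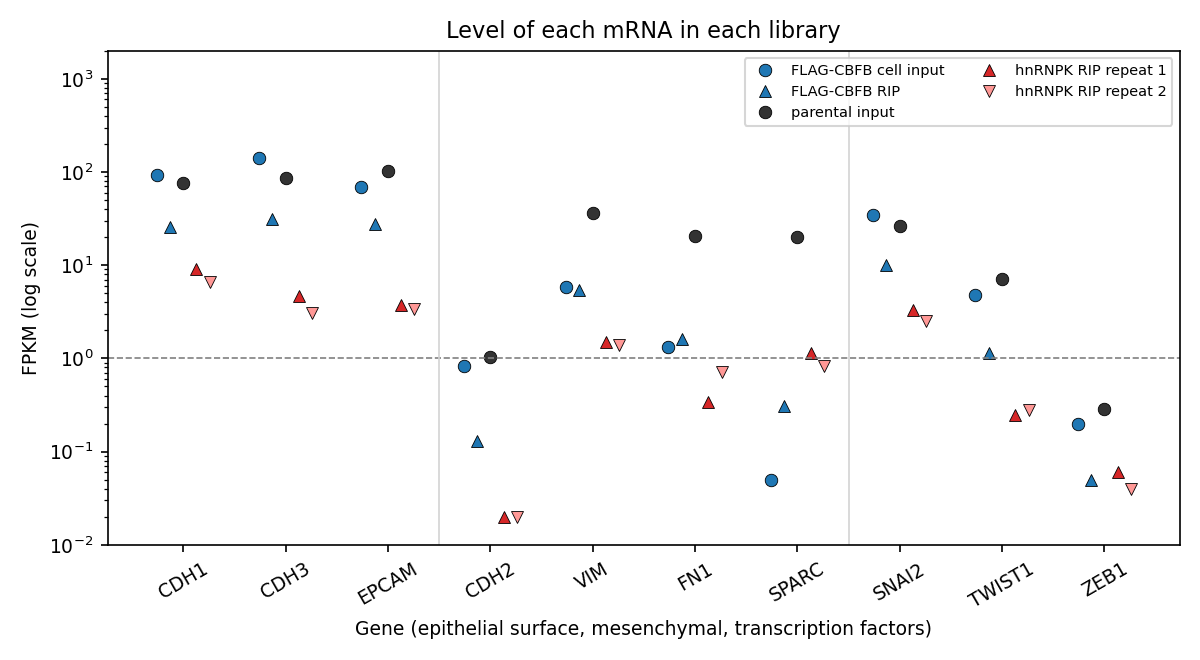
FPKM of the 10 mRNAs on a log axis, with each of the 5 libraries as its own point, circles for inputs and triangles for RIPs. CDH1, CDH3 and EPCAM lie between 69.34 and 143.02 in the inputs, VIM, FN1 and SPARC lie far lower in the FLAG-CBFB cell input than in the parental input, and the dashed line marks 1 FPKM.

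The inputs differed most in the mesenchymal mRNAs. VIM had 5.89 FPKM in the FLAG-CBFB cell input and 36.32 in the parental input. FN1 had 1.32 and 20.55, and SPARC had 0.05 and 19.92 FPKM. All 3 were lower in the cells expressing FLAG-CBFB. Their summed level was 7.26 FPKM in those cells and 76.79 FPKM in the parental cells. CDH1, CDH3 and EPCAM together came to 305.23 and 266.45 FPKM.

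By counts, SPARC had 5 in the FLAG-CBFB cell input and 1561 in the parental input, a log2 ratio of CPM (counts scaled to the library total) of -8.90 with a 95% exact counting interval of -10.53 to -7.68. The ratio was -3.38 for FN1 (-3.50 to -3.26), from 665 and 4517 counts. For VIM it was -2.63 (-2.73 to -2.53), from 1070 and 4316. These intervals cover counting error only. Each cell line had 1 input, so no test could be made, and the cells and the libraries cannot be told apart. Nor can fewer cells that carry an mRNA be told apart from less of it in each cell.

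The epithelial mRNAs moved less between the inputs. CDH1 had a log2 CPM ratio of 0.64 (0.61 to 0.67) and CDH3 of 0.55 (0.53 to 0.58), both higher in the FLAG-CBFB cells. EPCAM went the other way at -0.58 (-0.62 to -0.54). SNAI2 stood at 0.37 (0.31 to 0.43) and TWIST1 at -0.39 (-0.56 to -0.23). CDH2, with 172 and 222 counts, had a ratio of -0.98 (-1.28 to -0.69). For ZEB1 the interval of -0.99 to 0.34 included 0, so no difference was detectable at this depth.

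**Figure D2:**
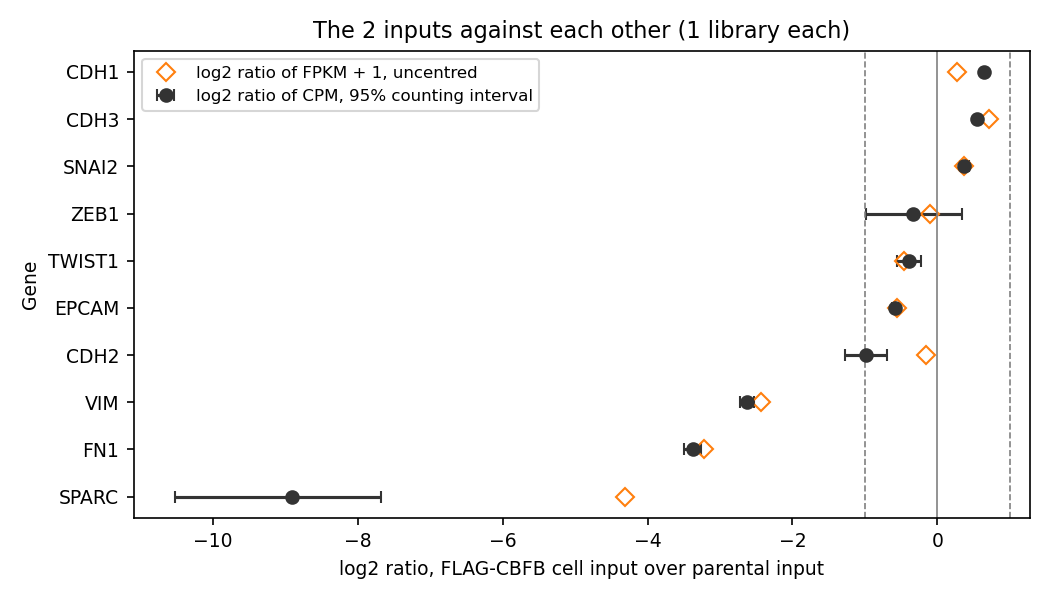
FLAG-CBFB cell input over parental input, as log2 ratios, for the 10 mRNAs. Black points are ratios of CPM with 95% exact counting intervals, open diamonds are ratios of FPKM + 1, and dashed lines mark 2-fold. SPARC, FN1 and VIM lie beyond 2-fold at -8.90, -3.38 and -2.63 of CPM, and only the interval of ZEB1 crosses 0.

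On the centred scale of FPKM + 1, VIM (-2.41), FN1 (-3.18) and SPARC (-4.29) were more than 2-fold lower in the FLAG-CBFB cell input, and none of the 8 was more than 2-fold higher. Among all 11764 genes, 4.87% were that much lower and 4.7% that much higher. FN1 and SPARC passed the filter only through the parental input, so for them a lower value elsewhere was built in, and the count of 3 gives no support of its own. VIM passed without the parental input too, and 0.510% of genes lay below it. The 0.102% below SPARC and 0.247% below FN1 have the same built-in limit and give no support either.

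Other genes of the same programmes were read from lists. Of 20 mesenchymal genes analysed, THBS1, a matrix glycoprotein, was the only one more than 2-fold lower in the FLAG-CBFB cell input. It had 6.72 against 46.52 FPKM. In the other direction, 2 genes were more than 2-fold higher, CD44 (433.33 against 196.6 FPKM) and CDH13 (16.46 against 6.48 FPKM). The list held 36 genes, and the others fell below the mean of 1 FPKM. Among those, log2 CPM ratios were -4.67 for VCAN, -1.67 for TAGLN, -1.55 for TNC, -1.39 for MMP2 and -1.32 for COL1A1. THY1 (-1.35), CDH4 (-1.02) and FBN1 (-0.08) were on the same side. BGN (1.51), MMP9 (4.59, from 37 and 1 counts), PDGFRB (0.55) and COL5A1 (6 against 0 counts) went the other way. THBS1, CD44, CDH13 and these filtered genes were named after their values were seen. Of 33 epithelial genes, 6 were more than 2-fold higher and 0 were lower. The median centred log2 ratio was 0.51 for the epithelial list, -0.06 for the mesenchymal list and -0.63 for the transition factors, against 0.00 over all genes. Cell type markers moved between the inputs too. The basal markers had a median of 0.88, and 2 of the 7 were more than 2-fold higher in the FLAG-CBFB cell input, TP63 (60.43 against 19.70 FPKM) and KRT14 (6.78 against 1.81 FPKM). The luminal markers had a median of -0.86, and 2 of the 4 analysed were more than 2-fold lower, KRT8 at -1.31 and KRT18 at -1.17. Their part in the values of the 10 mRNAs was not tested. The 8 fibroblast markers summed to 11.2 FPKM in the FLAG-CBFB cell input and 11.5 in the parental input, and 2 and 3 of them were at 0. FAP alone gave 9.69 and 8.75 FPKM of these sums.

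In the FLAG-CBFB RIP, none of the 8 mRNAs had a centred enrichment more than 4-fold above the average gene, where 4.37% of all genes did. The epithelial cadherins lay below the average gene and the mesenchymal mRNAs above it, although VIM stood at -0.11 without centring. The inputs of FN1 and SPARC were weak, as given below. CDH3 fell from 143.02 FPKM in the input to 31.20 in the RIP. CDH1 fell from 92.87 to 26.01, and EPCAM from 69.34 to 27.85 FPKM. Their centred log2 enrichments were -0.82 for CDH3, -0.46 for CDH1 and 0.05 for EPCAM. Only 8.11% of genes lay below CDH3, and 27.4% below CDH1.

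The transcription factors were near the average. SNAI2 had 34.45 FPKM in the input and 9.97 in the FLAG-CBFB RIP, a centred enrichment of -0.35, and 0.05 on log2 CPM with DESeq2 size factors. TWIST1 had 4.83 and 1.15 FPKM, a centred enrichment of -0.10. CDH2 went from 172 to 46 counts and ZEB1 from 45.4 to 11.6 counts, log2 CPM ratios of -1.67 (-2.17 to -1.19) and -1.67 (-2.73 to -0.73). Those falls lay within the range over CDH1, CDH3, EPCAM, SNAI2 and TWIST1, where CPM ratios ran from -2.29 for CDH1 to -1.33 for EPCAM.

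VIM, FN1 and SPARC did not fall as the other mRNAs did. VIM had 5.89 FPKM in the input and 5.39 in the FLAG-CBFB RIP. FN1 had 1.32 and 1.61, and SPARC 0.05 and 0.31 FPKM. Their centred enrichments were 1.23, 1.51 and 1.66, above those of 92.2%, 93.6% and 94.3% of genes. FN1 and SPARC passed the filter only through the parental input, so their places among the genes give no support.

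The values of FN1 and SPARC rest on weak inputs. A gene listed at 0 in both FLAG-CBFB libraries has a centred enrichment of 1.34, as 30 analysed genes had. SPARC rose from 5 to 29 counts, a log2 CPM ratio of 2.77 (1.38 to 4.50). For FN1 the ratio was 0.14 (-0.02 to 0.30), from 665 and 622 counts, and for VIM it was -0.12 (-0.25 to 0.01), from 1070 and 838 counts. Neither interval excluded 0, but 0 here is the input level and not the average gene, whose FPKM + 1 ratio was -1.34. Of non-mitochondrial counts, VIM took 0.00105% in the input and 0.00244% in the RIP, and FN1 took 0.00065% and 0.00181%. With a pseudocount of 0.1 in place of 1, SPARC passed the 4-fold line at 3.02, while FN1 stood at 1.83 and VIM at 1.44. With 1 library on each side, none of these values has a replicate check.

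In the hnRNPK RIPs, none of the 8 mRNAs was more than 4-fold above the average gene, where 8.2% of all genes were, and none was more than 4-fold below it, where 6.24% were. On this centred scale of FPKM + 1, EPCAM was the lowest of the 8. It had 102.56 FPKM in the parental input, 3.70 in RIP repeat 1 and 3.39 in repeat 2, and its centred log2 enrichment was -1.87 ± 0.02 (SD, n = 2). Only 8.02% of genes lay below it. By counts FN1 fell further, with log2 CPM ratios of -5.00 and -5.57 against -4.92 and -5.07 for EPCAM. The repeats of EPCAM differed far less from each other than from the input.

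CDH3 went from 86.91 FPKM in the parental input to 4.68 and 3.04 in the hnRNPK RIPs, a centred enrichment of -1.55 ± 0.30 (SD, n = 2). CDH1 went from 76.98 to 9.08 and 6.62 FPKM, a centred enrichment of -0.51 ± 0.24. CDH1, which lay below EPCAM and CDH3 in the parental input, had the highest level of the 10 in both RIPs, while CDH3 and EPCAM exchanged places between the repeats.

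VIM went from 36.32 FPKM in the parental input to 1.49 and 1.39 in the hnRNPK RIPs, a centred enrichment of -1.29 ± 0.01. SPARC went from 19.92 to 1.15 and 0.82 FPKM, a centred enrichment of -0.76 ± 0.12. FN1 went from 20.55 to 0.34 and 0.71 FPKM, a centred enrichment of -1.19 ± 0.30. The order of the FN1 repeats was the other way round by counts, at 208 and 123. The mean transcript length that the tables give FN1 was 6027 nt in repeat 1 and 2082 nt in repeat 2, and FPKM is divided by effective length, so FPKM and counts order the FN1 repeats differently.

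SNAI2 had 26.44 FPKM in the parental input, then 3.28 and 2.55 after hnRNPK RIP, a centred enrichment of -0.17 ± 0.14. TWIST1 had 7.05 FPKM, then 0.25 and 0.28, a centred enrichment of -0.03 ± 0.07. This value moved with the setting, to -0.85 with a pseudocount of 0.1 and to -0.81 with FPKM rescaled without mitochondrial genes. CDH2 fell from 222 counts to 7 and 8. ZEB1 fell from 36.5 counts to 11.5 and 3.36. With a pseudocount of 1, SNAI2 and TWIST1 were closer to the average gene than EPCAM, CDH3 or VIM were. By counts this grouping did not hold for TWIST1, whose log2 CPM ratios were -4.40 and -4.75. Those of CDH3 were -4.42 and -4.81, of VIM -4.64 and -4.72, and of SNAI2 -3.02 and -3.39.

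**Figure D3:**
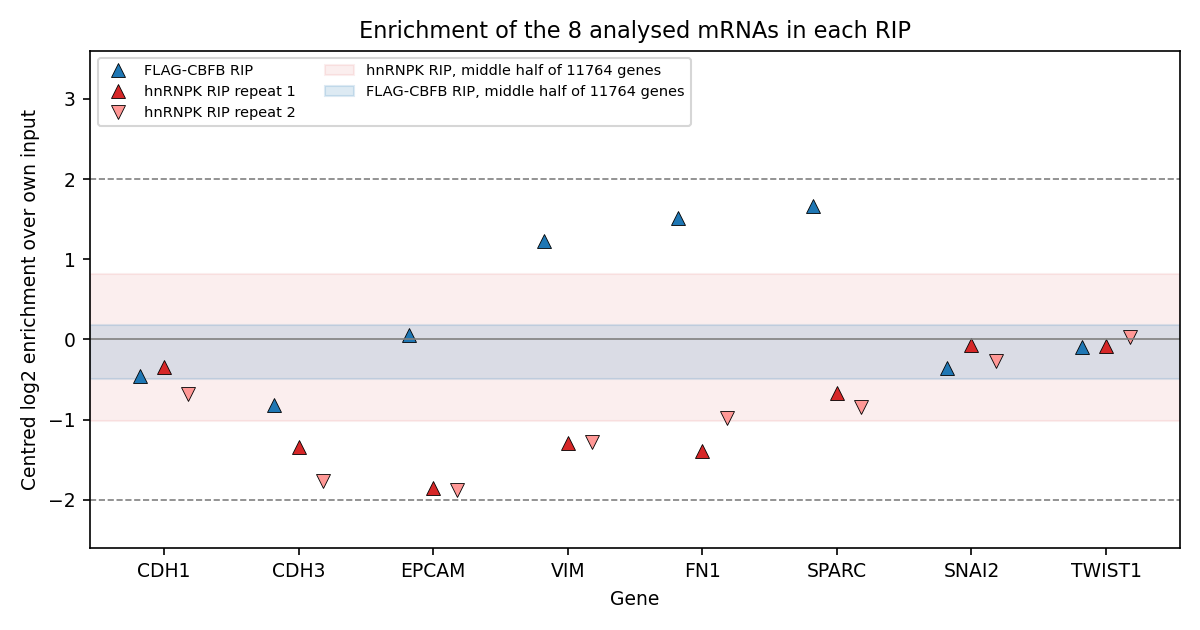
Centred log2 enrichment over the own input for the 8 analysed mRNAs in all 3 RIP libraries. The bands hold the middle 50% of all analysed genes and dashed lines mark 4-fold. All 8 lie inside the dashed lines, EPCAM lowest in the hnRNPK RIPs at -1.85 and -1.88 and SPARC highest in the FLAG-CBFB RIP at 1.66.

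A test on the counts was possible only for hnRNPK, 2 RIP libraries against 1 input. By edgeR's quasi-likelihood test with Benjamini-Hochberg adjustment over 11764 genes, 2 of the 8 mRNAs were lower in the hnRNPK RIP than the scaled average and 0 were higher. FN1 had a log2 fold change of -1.30 (SE 0.34, adjusted p = 0.00593) and EPCAM of -1.02 (SE 0.33, adjusted p = 0.0198), both by edgeR. FN1 passed the filter only through the parental input, the control of this test, so a lower value in the RIP was partly built in. Of all genes, 14.3% were called lower and 24.6% higher by the same test. At an unadjusted edgeR p under 0.05, 3 of the 8 were lower and 1 was higher, where 5573 of all 11764 genes passed in either direction. DESeq2 called FN1 alone, with an adjusted p of 0.0252, and gave EPCAM an adjusted p of 0.0527.

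The other 6 did not pass. VIM had a log2 fold change of -0.70 (SE 0.33, edgeR adjusted p = 0.102), and CDH3 of -0.64 (SE 0.32, edgeR adjusted p = 0.130). TWIST1 stood at -0.60 (edgeR adjusted p = 0.372). CDH1 and SNAI2 stood on the other side of 0 from their centred FPKM values, at 0.67 (SE 0.36, edgeR adjusted p = 0.148) and 0.77 (SE 0.35, edgeR adjusted p = 0.0895). SPARC did so too, at 0.32 (edgeR adjusted p = 0.520). The enrichments of CDH1 and SNAI2 also turned above 0 with a pseudocount of 0.1, at 0.15 and 0.29, and with FPKM rescaled without mitochondrial genes, at 0.26 and 0.38. SPARC stayed below 0 under both, at -0.78 and -0.69. None of the 3 was called in either direction by this test. When both inputs served as controls, FN1 lost its call (edgeR adjusted p = 0.722), EPCAM too (0.108), and CDH3 was called lower at -0.91 (edgeR adjusted p = 0.0491).

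Against the average gene, VIM, FN1 and SPARC had one sign with FLAG-CBFB and the opposite sign in both hnRNPK repeats. For FN1 and SPARC this gives no support, since both passed the filter only through the parental input, which the hnRNPK RIPs are set against, and since their FLAG-CBFB values lay near the 1.34 of a gene at 0. SPARC was also above 0 for hnRNPK by edgeR, as given above. EPCAM also had opposite signs with FLAG-CBFB and hnRNPK, although its FLAG-CBFB value of 0.05 was close to 0. CDH3 was below the average gene in all 3 RIPs, at -0.82, -1.34 and -1.76. The FLAG-CBFB RIP has no repeat, so this difference was not tested. The inputs the RIPs are set against differed 6.17-fold in VIM and 15.6-fold in FN1 by FPKM, and the part of this in the opposite signs was not tested. When each RIP was set against the input of the other cells, the signs of VIM, FN1 and SPARC turned in both, to -1.18, -1.68 and -2.63 for FLAG-CBFB and to 1.12, 2.0 and 3.53 for hnRNPK.

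By closeness of their enrichments in the 3 RIP libraries, the genes most like EPCAM were EEF1E1, MRPS18C and MRPS11, at Euclidean distances of 0.03, 0.04 and 0.05 on the log2 scale. Those most like CDH1 were RGS14, GSN and FADS3, at 0.04 each after rounding. SNAI2 lay closest to CLIP4 at 0.02, and TWIST1 to RITA1 at 0.04. CDH3 had its nearest gene, GLOD4, at 0.09. The nearest to SPARC were RNU6-216P, a Y_RNA and SNORA18, small RNA genes listed at 0 in all libraries but the parental input. A Y_RNA of that kind was also nearest to VIM and FN1, with DCXR and CAVIN3 next for VIM. With only 3 values a gene, this likeness is a description.

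The cadherins act through catenins, and the catenin mRNAs parted in the hnRNPK RIPs. CTNND1 (p120-catenin, which binds the cadherin tail near the membrane) had 59.16 FPKM in the parental input, then 93.72 and 72.00 after hnRNPK RIP. JUP (plakoglobin) had 98.41, then 101.96 and 63.84 FPKM. CTNNB1 (beta-catenin) had 71.71, then 2.28 and 2.07 FPKM. CTNNA1 (alpha-catenin) had 222.28, then 9.39 and 6.77 FPKM. By edgeR, CTNND1 (log2 fold change 4.52, adjusted p = 5.02e-08) and JUP (3.65, adjusted p = 4.75e-07) were higher, and CTNNB1 (-1.13, adjusted p = 0.0103) and CTNNA1 (-1.03, adjusted p = 0.0131) were lower. In the FLAG-CBFB RIP their centred enrichments were 1.03, 1.45, -0.64 and -0.75 in the same order.

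In the wider lists, 12 of 33 epithelial genes were called higher and 3 lower by edgeR in the hnRNPK RIP, where 24.6% and 14.3% of all genes were. Of the 20 mesenchymal genes 4 were higher and 2 lower, and of 12 transition factors 3 were higher and 2 lower. The median centred hnRNPK enrichment was -0.10 for the epithelial list, -0.27 for the mesenchymal list and 0.45 for the transition factors, against -0.11 over all genes and -0.97 over the 8 mRNAs. In the FLAG-CBFB RIP the medians were -0.38, -0.07 and -0.03, against -0.19 over all genes and -0.02 over the 8.

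Single genes of the lists went beyond the range of the 8 in some or all of the RIPs. MUC1, a transmembrane mucin of the apical surface, had 28.87 FPKM in the FLAG-CBFB cell input and 242.42 in the FLAG-CBFB RIP. It had 33.12 FPKM in the parental input, then 177.88 and 134.11 after hnRNPK RIP. Its centred enrichments were 4.37, 5.00 and 4.66. SNAI1 (Snail, of the same family as SNAI2) had centred enrichments of 2.0, 2.49 and 2.58, from an input of only 0.46 FPKM in FLAG-CBFB cells. SNAI1 had an edgeR log2 fold change of 3.78 (adjusted p = 3.48e-06) for hnRNPK, and SNAI2, as given above, was not called. DSP (desmoplakin) and ID1, an inhibitor of basic helix-loop-helix factors, were the lowest named from their lists by the mean of both enrichments. DSP stood at -1.59 for FLAG-CBFB and -1.45 and -1.43 for hnRNPK, and ID1 at -0.02, -2.28 and -2.36.

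The remaining named genes lay between these ends. AXL, a receptor tyrosine kinase, and LOXL2, a matrix cross-linking enzyme, were the highest of the mesenchymal list by the mean of both enrichments. They had centred hnRNPK enrichments of 2.48 and 1.83 for AXL and 1.96 and 1.80 for LOXL2. MMP14 and CALD1 were the lowest of that list by the same mean, at -1.17 and -1.09 in the FLAG-CBFB RIP. FOXC2 stood at 0.57 for FLAG-CBFB and 2.19 and 1.53 for hnRNPK, and ID3 at 0.10, -1.70 and -1.48.

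**Figure D4:**
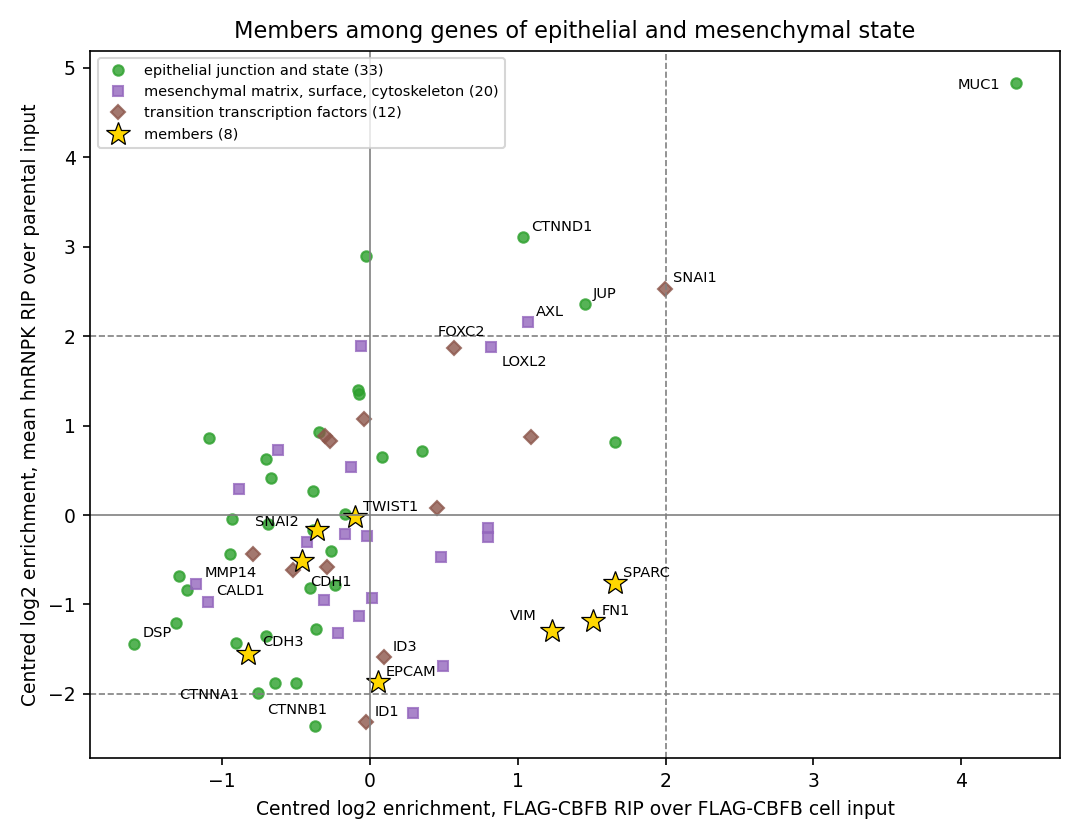
Centred log2 enrichment in the FLAG-CBFB RIP (horizontal) against the mean of the hnRNPK RIPs (vertical) for the 8 mRNAs, drawn as stars, and the analysed genes of the epithelial, mesenchymal and transition factor lists. MUC1 lies alone at 4.37 on the horizontal axis. CTNND1, JUP, SNAI1, AXL and the unlabelled CLDN1 (2.90) also lie above the 4-fold line of the hnRNPK axis. VIM, FN1 and SPARC lie to the right of and below 0.

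Because hnRNPK prefers C-rich RNA, the longest run of C whose window lies within 1 exon is shown for mRNAs whose enrichments the comparison turns on. For SPARC this is a run of 5, although its longest run has 6 C. The windows of 30 nt come from 1 GENCODE 29 transcript a gene, are written 5′ to 3′, and hold the runs of at least 4 C in capitals.
CDH3: gggggcagacagCCCCCCtgagggtgtctt
EPCAM: agcctactcactCCCCCaactcccgggcgg
VIM: ctcgctccgaggtCCCCgcgccagagacgc
FN1: cccaccctctggCCCCCaccttcttggagg
SPARC: atgagaacaacaCCCCCatgtgcgtgtgcc
TWIST1: tagcaggcggagCCCCCCaCCCCCtcagca
CTNND1: gtctcaacgcctCCCCCtCCCCCattccct
JUP: cctgtttcagaCCCCCCCatttcccgcaca
CTNNB1: gaagttggctagCCCCCtctttgtcaaaac
The run of CDH3 is in coding exon 5 of 16 (chr16:68678554-68678583 in GRCh38, plus strand). The 5′ UTR holds those of EPCAM (chr2:47369176-47369205, plus), VIM (chr10:17229288-17229317, plus) and FN1 (chr2:215435914-215435943, minus). That of SPARC is in coding exon 5 of 10 (chr5:151671617-151671646, minus), and that of TWIST1 in the 3′ UTR (chr7:19116686-19116715, minus). The runs of CTNND1 (chr11:57816494-57816523, plus) and JUP (chr17:41754725-41754754, minus) are in the 3′ UTR, and that of CTNNB1 in the 5′ UTR (chr3:41221088-41221117, plus).

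Such runs are common. Of 10528 analysed genes with a matched transcript, 98.2% held CCCC, read on the sense strand, 83.1% held a run of at least 5 and 43.2% of at least 6 C. TWIST1 had the highest density of runs of at least 4 C of the analysed members, at 6.0 a kb, more than 72.1% of genes. SPARC had 5.40, FN1 4.30, CDH3 4.26, EPCAM 4.06 and CDH1 3.89 a kb. VIM had the lowest density of the 8, at 1.61 a kb, more than 20.4% of genes. EPCAM, the lowest of the 8 in the hnRNPK RIPs, lay above 55.9% of genes in run density.

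The catenins differed more widely. JUP had 12.3 runs a kb, above 96.6% of genes, and CTNNB1 had 1.06, above 10.6%. CTNND1, with the highest hnRNPK enrichment of the catenins, lay near the middle at 3.33. Across all 10528 genes, the median hnRNPK enrichment was -0.45, -0.35, -0.23 and 0.30 from the lowest to the highest 25% by run density. The Spearman correlation across genes was 0.24 for hnRNPK and 0.23 for FLAG-CBFB. The genes share libraries and base composition, and the correlation is given as a description.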

How the data were processed

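Per the labels, Trizol extraction and a column cleanup preceded library preparation with a TruSeq mRNA kit. The submitters' processing notes name Trimmomatic, STAR, RSEM and hg19. Versions and the annotation release are not given in the sources used here. The authors deposited 1 RSEM gene table for each of the 5 libraries. The expected counts deposited by the authors are estimates in which a read that fits several genes is shared. The deposited FPKM values are these estimates per kb of effective length and scaled to the fragments of the library, so mitochondrial reads lower all other genes. Each table also gives a transcript length for each gene. TPM and a few hand-written symbols in the tables of FLAG-CBFB cells were not used.

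Gene identifiers were matched to symbols with gene name tables, GENCODE 29 among them. Coordinates and sequences are those of GENCODE 29 on GRCh38, since the tables hold no positions. CD24 and PECAM1 of the lists were not matched and are not analysed here. Samples were grouped by title. The members and lists were chosen with earlier results of these data known.

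Enrichment was log2(FPKM + 1) of a RIP minus that of the input of the same cells, centred on the mean over genes whose FPKM averaged at least 1. A fold change on this scale understates the change of weak genes. Lines of 4-fold for RIPs and 2-fold for inputs were used. Log2 CPM ratios were computed from total expected counts, with 95% exact (Clopper-Pearson) intervals that cover counting error only. Expected counts of the hnRNPK RIPs and parental input were rounded and tested with edgeR 4.0.16 (quasi-likelihood test, TMM factors) in R 4.3.3, with an adjusted p threshold of 0.05. The spread came from the RIP repeats alone, and the lone input was assumed to vary likewise. SE is the log2 fold change over the square root of the F statistic. The fit was tested on simulated data with known changes. DESeq2 1.42.0, another pseudocount, other centring, other filters, CPM scales and the opposite input were the alternatives. Named genes were all members, the catenins, and from each list the 2 highest and 2 lowest by the mean of both enrichments with at least 50 counts in each input. No mock immunoprecipitation was analysed here.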

Additional observations from a re-analysis of the deposited data

Results flagged for a closer look

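For 6 named genes the enrichment against the average gene had one sign in the FLAG-CBFB RIP and the other in both hnRNPK RIPs, each RIP against the input of its own cells. The share of all analysed genes with such opposite signs was not computed, so the count of 6 is a description only. The difference between the RIPs was not tested, since the FLAG-CBFB RIP has no repeat. FN1 was at 1.51 for FLAG-CBFB, then -1.40 and -0.98 for hnRNPK, a gap of 2.70 to their mean. VIM was at 1.23, then -1.30 and -1.29, a gap of 2.52. SPARC was at 1.66, then -0.67 and -0.84, a gap of 2.42, on 5 counts in the FLAG-CBFB cell input. FN1 and SPARC passed the filter only through the parental input, and a gene at 0 in both FLAG-CBFB libraries has a value of 1.34, so the opposite signs of these 2 give no support. By edgeR, SPARC stood at 0.32 for hnRNPK (adjusted p = 0.520). EPCAM was at 0.05, then -1.85 and -1.88, a gap of 1.92. ID3 was at 0.10, then -1.70 and -1.48, a gap of 1.69. CBFB, the gene whose protein carries the FLAG tag, was at 0.67, then -0.96 and -1.10, a gap of 1.70, with 53.91 FPKM in the FLAG-CBFB cell input and 32.24 in the parental input. By edgeR, CBFB stood at 0.31 for hnRNPK (adjusted p = 0.503), on the same side as for FLAG-CBFB.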

How the results depend on the processing

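FLAG-CBFB and input values rest on 1 library a side. Of the 8 mRNAs, the number above 4-fold in the FLAG-CBFB RIP went from 0 to 1, SPARC, with a pseudocount of 0.1 and with log2 CPM on TMM or DESeq2 size factors, and to 3 at 2-fold. For hnRNPK, 8 lay more than 4-fold lower without centring, 8 of 10 with all genes, 4 at 2-fold, and with the opposite input 1 (CDH3), while 1 (SPARC) lay above 4-fold. Where FPKM averaged at least 5, and FN1, SPARC and TWIST1 dropped out, 1 (VIM) of 5 differed between the inputs. The median FLAG-CBFB enrichment moved from -0.02 to -1.36 without centring, 0.17 with median centring, -0.67 with all genes, -0.27 at an average FPKM of at least 5, 0.23 with TMM, 0.28 with DESeq2 size factors and -0.50 with the opposite input. The hnRNPK median moved from -0.97 to -3.62, -0.86, -2.67, -0.83, -0.75, -0.58 and -0.082 in the same order, to -0.87 without mitochondrial genes, and from -0.99 to -0.91 when either repeat was left out. Calls among the 8 went from 2 to 1 with DESeq2 (FN1), to 1 with both inputs as controls (CDH3) and to 5 of 10 with no filter, all lower. With FPKM averaging at least 5, SNAI2 was called higher at 0.92 (edgeR adjusted p = 0.0413). Of the 4568 calls over all genes 63.3% were higher, against 76.97% by DESeq2 and 49.15% with no filter. Without centring, AXL (-0.49), SNAI1 (-0.11) and JUP (-0.28) turned below 0 for hnRNPK. The median of all genes for hnRNPK stood at -0.11, at -0.42 with a pseudocount of 0.1, at -0.39 without mitochondrial genes and at -0.25 with TMM. The causes of these shifts were not tested. Leaving out an hnRNPK repeat leaves edgeR 1 library on each side and no residual degrees of freedom, so that fit gave no test. No paired analysis was possible because only the hnRNPK RIP carries repeat numbers.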
